A study of Mus musculus with 8 samples.

Results

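Neuropeptide genes of the newborn mouse cortex were followed in RNA-seq counts of whole cortical tissue taken at postnatal day 1 (P1). The 10 genes were taken by their symbols as peptide precursors that cortical neurons express, a rule that uses no measured value. They are *Sst*, *Npy*, *Cck*, *Tac1*, *Penk*, *Pdyn*, *Vip*, *Crh*, *Nts* and *Adcyap1*, which make 10 of the 48709 genes listed in the files. All 10 passed the filter on low counts, with a mean of 17.5 (*Crh*) to 3121 (*Nts*) raw counts per library.

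The 4 control libraries came from heterozygous animals (BAF155 fl/+, BAF170 fl/+) without Cre, and the 4 mutant libraries from dcKO_Nex-Cre animals, in which both floxed BAF155 (*Smarcc1*) and BAF170 (*Smarcc2*) alleles meet the Nex-Cre driver. The animals had a C57BL6/J background, and the labels give P1 as the age of every library. The name of the Cre line and the control genotype come from the study's methods, while the sample labels give only control or mutant. Nex-Cre acts in postmitotic projection neurons, so that interneurons, glia and vessels of the same tissue keep BAF155 and BAF170, and the controls also carry 1 floxed allele of each gene. The labels do not say how many animals or litters the libraries represent, and p values therefore measure only the spread between these libraries.

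Values are given as CPM, counts scaled to a common library size by TMM, for each library in the order of its replicate number. Total counts ranged from 17958641 to 35191912. Mitochondrial genes took 6.87% of the counts in control replicate 2 and 6.15% in dcKO_Nex-Cre replicate 4, against 2.33% to 4.24% in the other libraries, and the part of this difference in the results was not tested. *Smarcc2* retained 56.9% and *Smarcc1* 69.2% of the control level, and both were downregulated, with adjusted p values of 0.00267 and 0.0348 in edgeR's quasi-likelihood test. The file names hold a lane tag, which was 2 for the 4 controls and for mutant replicates 1 and 2 and was 8, without any control, for mutant replicates 3 and 4. Values within lane tag 2 are therefore given beside the main results. Control replicate 2 and dcKO_Nex-Cre replicate 2 were high in *Xist* (1877 and 917 CPM, against at most 8.43 CPM elsewhere), so each group held 1 such library. The replicate 2 library of the dcKO_Nex-Cre cortex also stood apart in genes of striatal neurons, described with the opioid and tachykinin precursors. The choroid plexus gene *Ttr* ranged from 2.86 to 1305 CPM over the 8 libraries.

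Neuropeptides are made as larger precursor proteins that enter the secretory pathway, where convertases cut them at basic residues and other enzymes trim and amidate the ends. The products are kept in dense-core vesicles and act on G protein-coupled receptors, usually more slowly than the fast transmitter of the same neuron. In the mature cortex *Sst*, *Npy* and *Vip* mark classes of GABAergic interneurons, whereas *Cck* and *Adcyap1* are also made by projection neurons, and *Tac1*, *Penk* and *Pdyn* are abundant in the neighbouring striatum.

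Many neuropeptide genes carry a cAMP response element (CRE) close to the start of transcription, where the activity-regulated factor CREB can bind. In RefSeq promoter windows (GRCm38.p6, 250 bases before to 50 after the start), the 250 bases before the start were therefore searched on both strands. The search was for the full element TGACGTCA and for its shorter form TGACG, which is contained in the full element. The 50 bases after the start were not searched, and all shares of genes and windows given here refer to the 250 bases before it. Windows were available for 8 of the 10 genes, *Penk* and *Crh* being without an entry. The stretches of 30 bases shown here, read on the gene's own strand from 5′ to 3′, hold the match in capitals, with CGTCA being the shorter form read on the other strand.
*Sst*, minus strand, chr16:23890875-23890904: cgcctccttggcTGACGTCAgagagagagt
*Vip*, plus strand, chr10:5639127-5639156: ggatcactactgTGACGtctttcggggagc
*Adcyap1*, plus strand, chr17:93198914-93198943: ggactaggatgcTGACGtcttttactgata
*Cck*, minus strand, chr9:121495724-121495753: cctgctggactgCGTCAgcactgggtaaac
*Tac1*, plus strand, chr6:7554852-7554881: tccctaaaattgCGTCAtttcgaacacaat
*Nts*, minus strand, chr10:102490567-102490596: attagggaagatCGTCActttccatcaagg
The full element was found in *Sst* alone among these genes, 48 bases before the start, and 1.77% of all genes with a window held it (1.55% of all 32851 windows). The GENCODE M21 model of *Sst* begins further upstream than the RefSeq start, so that this stretch lies inside the GENCODE gene. The shorter form was found in 6 of the 8 genes, where 19.8% of all genes held it, and in 7 of their 10 windows, where 17.8% of all windows did. Both windows of *Adcyap1* overlap and hold the same match, which is thus counted in each. In *Tac1* the shorter form occurred at 197 bases before the start, as shown, and again at 43 bases before it. The GENCODE M21 model of *Tac1* begins at 7554879, also upstream of the RefSeq start. The match at 43 bases thus lies inside the GENCODE gene, and the stretch shown spans the GENCODE start. In the windows of *Npy* and *Pdyn* the searched bases held neither form of the letters. A match of letters is not evidence of binding, and no binding was measured here.

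Scaled by exon length, 3 precursors stood well above the others in the control cortex. The levels of *Sst*, *Npy* and *Nts* were 133 ± 34.6, 133 ± 13.1 and 125 ± 36.6 CPM per kb (SD, n = 4), and their ranges overlapped, so that no order among them can be given. *Cck* followed at 31.1 ± 1.38 CPM per kb. *Penk* (5.84 ± 0.964), *Tac1* (4.57 ± 1.84) and *Adcyap1* (3.13 ± 0.430 CPM per kb) formed the next group, in which each range overlapped that of its neighbour. *Pdyn* was at 1.84 ± 0.398, *Crh* at 0.557 ± 0.165 and *Vip* at 0.389 ± 0.0564 CPM per kb, and the *Pdyn* range cleared that of both its neighbours in the order. At P1 the transcript of *Vip*, a marker of a large interneuron class in the adult cortex, was thus the scarcest of the 10 on this scale.

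In the dcKO_Nex-Cre cortex none of the 10 precursors passed an adjusted p of 0.05 in edgeR, against 0.884% of all 16287 genes tested. DESeq2's Wald test called 1 of them, *Sst*, against 3.03% of all genes, and limma-voom called 0, against 0.798% of all genes. At an unadjusted p under 0.05, edgeR picked 3 of the 10, where 13.6% of all genes were picked, with *Sst* and *Nts* lower (7.05% of all genes were lower) and *Pdyn* higher in the mutant (6.59% were higher). The groups overlapped in CPM for all 10 genes, while 8% of all genes had groups that did not overlap. The median log2 fold change of the 10 genes was -0.16, beside 0.00 for all genes tested, and 6 of the 10 lay below 0. In whole tissue, fewer cells of a type and less RNA per cell cannot be told apart.

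**Figure D1:**
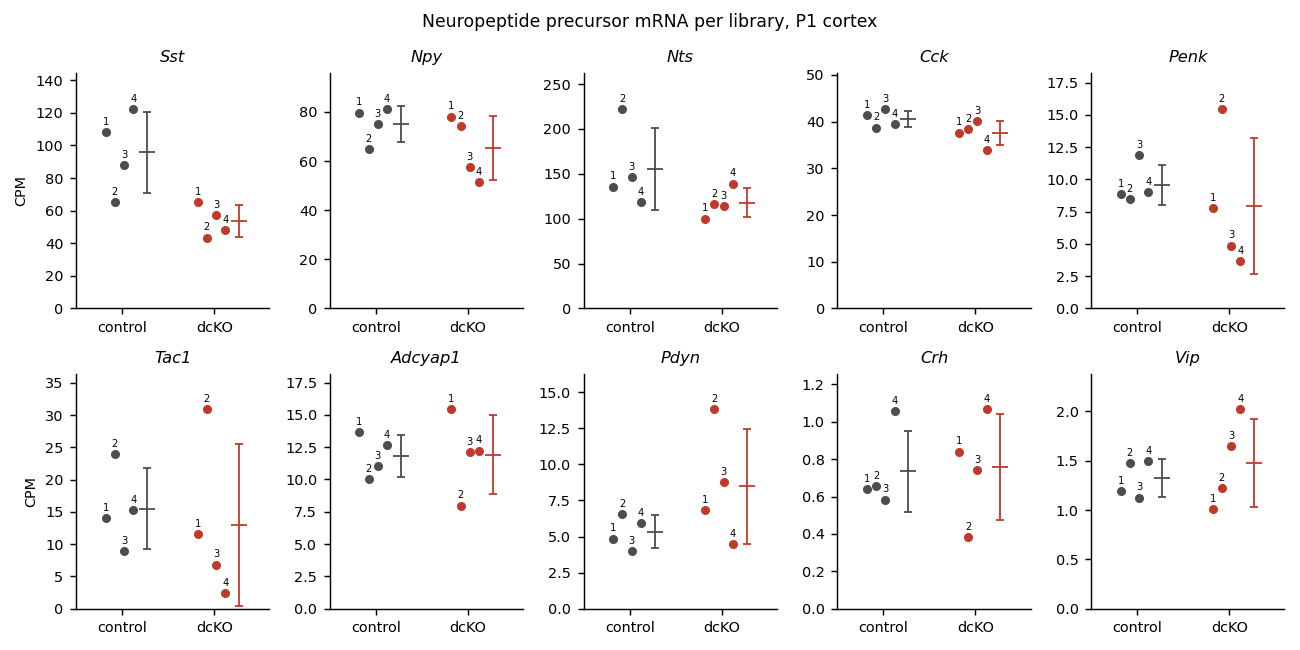
Neuropeptide precursor mRNA in each library of the P1 cortex. The vertical axes give CPM from 0, numbered points are libraries by replicate number, and bars give the mean and SD of 4 libraries. In the dcKO group 3 libraries lay below every control library for each of *Sst*, *Nts*, *Cck* and *Penk*. *Tac1*, *Penk* and *Pdyn* each had their highest value in dcKO replicate 2.

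*Sst* encodes somatostatin, an inhibitory peptide of dendrite-targeting interneurons (ENSMUSG00000004366, chromosome 16 of GRCm38, 23889573 to 23890958, minus strand). Its CPM in the control libraries was 108, 65.1, 88.0 and 122, and in the dcKO_Nex-Cre libraries 65.5, 43.4, 57.4 and 47.9. In the mutant group 3 libraries lay below all controls, and the overlap came from control replicate 2 (65.1 CPM) and mutant replicate 1 (65.5 CPM). The mutant mean was 55.8% of the control mean, and the fitted change was -0.84 on the log2 scale, with a standard error of 0.18 and a 95% interval of -1.25 to -0.43. Its unadjusted p in edgeR was 0.000796 and its adjusted p was 0.0645, rank 201 among all genes, so that it missed the threshold. DESeq2 gave an adjusted p of 0.00108, and over all 18 alternatives the adjusted p ranged from 0.00108 to 0.301. The log2 fold change was negative in every alternative and lay between -0.98 and -0.70. Within lane tag 2 it was -0.81, with an adjusted p of 0.156 in edgeR, and leaving out control replicate 2 gave -0.98, with an adjusted p of 0.0239. The exact permutation test over the 70 regroupings of the libraries, two-sided, gave p = 0.0571, where 0.0286 is the smallest value it can reach.

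*Npy* encodes neuropeptide Y, found in neurogliaform cells and in some of the interneurons that also make somatostatin (ENSMUSG00000029819, chromosome 6, 49822710 to 49829507, plus strand). Its CPM was 79.7, 64.8, 74.9 and 81.2 in the control and 78.1, 74.4, 57.6 and 51.3 in the dcKO_Nex-Cre cortex. The lower mutant values were those of replicates 3 and 4, which are the libraries of lane tag 8. *Npy* had a log2 fold change of -0.20 (95% interval -0.49 to 0.09, adjusted p = 0.522 in edgeR) over all libraries and of 0.02 within lane tag 2. Lane tag and genotype cannot be told apart for the libraries of lane tag 8. *Npy* lies 5.85 Mb from *Neurod6*, the gene that carries Nex-Cre, and whether this position had a part in its values was not tested.

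*Vip* and *Crh* had the fewest counts of the 10 genes. *Vip*, the vasoactive intestinal peptide precursor, had 26, 27, 27 and 34 counts in the control and 35, 32, 40 and 36 counts in the mutant libraries. Its log2 fold change was 0.14 with a 95% interval of -0.42 to 0.69. *Crh*, the corticotropin-releasing hormone precursor, had 14, 12, 14 and 24 counts in the control and 29, 10, 18 and 19 counts in the mutant libraries, and its log2 fold change was 0.02 with an interval of -0.72 to 0.76. Both intervals held 0.

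*Nts*, the neurotensin precursor, had the highest count of the 10 genes (ENSMUSG00000019890, chromosome 10, 102481756 to 102490486, minus strand). Its CPM was 136, 222, 146 and 118 in the control and 100.2, 116, 114 and 139 in the dcKO_Nex-Cre cortex. Again 3 mutant libraries lay below every control, but mutant replicate 4 reached into the control range. The log2 fold change was -0.41 (standard error 0.17), with an unadjusted p of 0.0400 and an adjusted p of 0.339 in edgeR. Control replicate 2, one of the *Xist*-high libraries, held the highest value, and without it the change was -0.18 on the log2 scale. The libraries of lane tag 2 alone gave -0.52 (adjusted p = 0.242 in edgeR).

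*Cck*, the cholecystokinin precursor of basket cells and projection neurons, was the steadiest of the 10. It stood at 41.4, 38.8, 42.7 and 39.5 CPM in the control and at 37.6, 38.5, 40.2 and 34.0 CPM in the dcKO_Nex-Cre cortex. In the mutant group 3 libraries lay below every control for *Cck*. Its coefficient of variation was 4.44% and 6.97%, and its log2 fold change was -0.11 with a 95% interval of -0.28 to 0.06. *Adcyap1*, which encodes PACAP, was at 13.6, 10.02, 11.02 and 12.6 CPM in the control and at 15.4, 7.97, 12.1 and 12.2 CPM in the mutant. The log2 fold change of *Adcyap1* was 0.01 with an interval of -0.39 to 0.42, and its lowest value was in dcKO_Nex-Cre replicate 2.

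**Figure D2:**
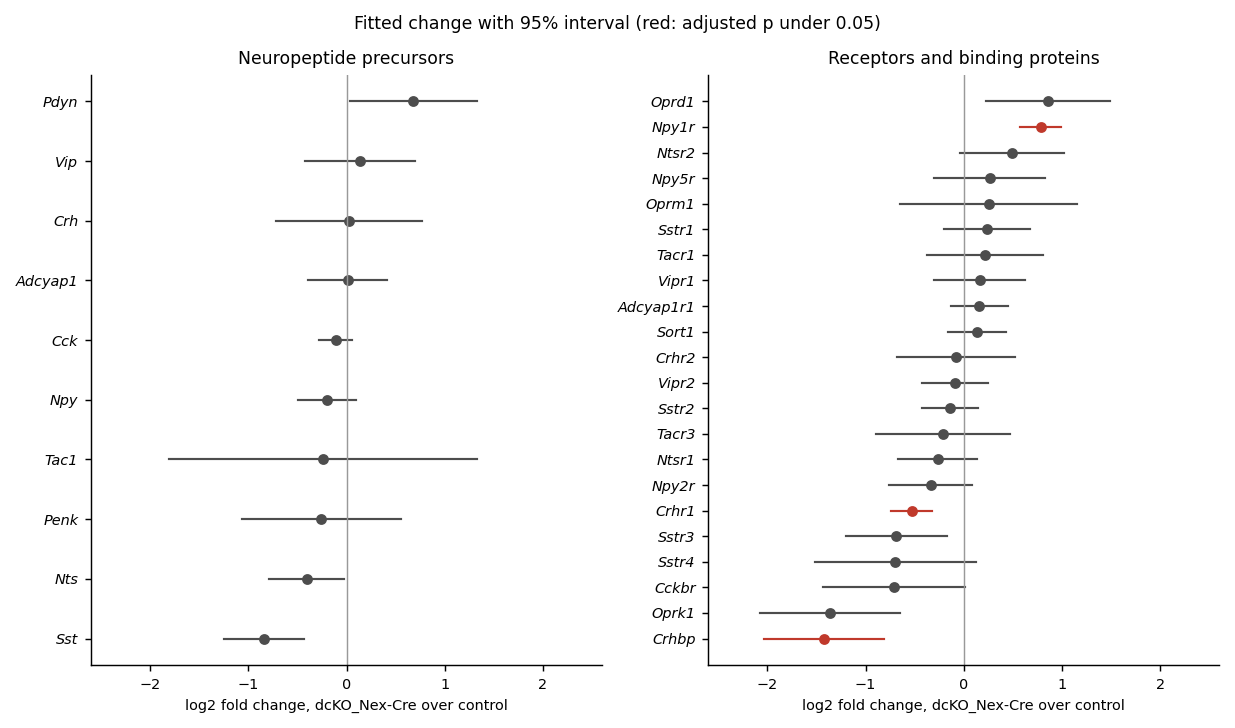
Fitted log2 fold changes of the 10 precursors (left) and of 22 tested receptors and binding proteins (right), dcKO_Nex-Cre over control. Points are edgeR estimates, lines are 95% intervals, and red marks an adjusted p under 0.05. No precursor is red, and *Npy1r* (0.78), *Crhr1* (-0.53) and *Crhbp* (-1.42) are.

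The tachykinin and opioid precursors varied most between the mutant libraries. *Tac1* encodes substance P and neurokinin A, *Penk* the enkephalins and *Pdyn* the dynorphins. *Tac1* was at 14.01, 24.0, 8.89 and 15.2 CPM in the control and at 11.6, 30.9, 6.85 and 2.47 CPM in the dcKO_Nex-Cre cortex, a 12.5-fold span within the mutant group. *Penk* was at 8.84, 8.48, 11.9 and 8.99 CPM in the control and at 7.77, 15.4, 4.87 and 3.65 CPM in the mutant. Of its mutant libraries 3 lay below every control. *Pdyn* was at 4.85, 6.57, 3.96 and 5.90 CPM in the control and at 6.84, 13.8, 8.75 and 4.49 CPM in the mutant. For all 3 genes the highest of the 8 libraries was dcKO_Nex-Cre replicate 2 and the lowest mutant library was replicate 4.

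The log2 fold changes were -0.24 for *Tac1* (95% interval -1.81 to 1.33), -0.26 for *Penk* (-1.07 to 0.55) and 0.68 for *Pdyn* (0.03 to 1.33). Their adjusted p values in edgeR were 0.899, 0.783 and 0.341. Without dcKO_Nex-Cre replicate 2 the values were -1.10 for *Tac1*, -0.79 for *Penk* and 0.35 for *Pdyn*, none of them past the threshold. Within lane tag 2, which leaves mutant replicates 1 and 2, they were 0.45, 0.27 and 0.95. The direction for *Tac1* and *Penk* thus depended on which mutant libraries were in the fit, whereas the value of *Pdyn* was above 0 in all 18 alternatives, with adjusted p values from 0.0521 to 0.632.

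Projection neurons of the striatum express these 3 precursors strongly, and the striatum borders the cortex. Of 14 markers of striatal neurons, 13 had their highest value in dcKO_Nex-Cre replicate 2, the exception being *Rgs9*. Their summed level was 456 CPM in that library and 143 to 234 CPM in the other 7. The dopamine receptor gene *Drd2* was 5.28 times and the striatal transcription factor gene *Isl1* 8.46 times the median of the other libraries there, while *Tac1*, *Pdyn* and *Penk* were 2.66, 2.34 and 1.82 times that median. No striatal marker was at 0 in every library, and the sum was 152 to 234 CPM in the control. Of the 14 markers, 1 was upregulated in edgeR, against 0.375% of all genes, namely *Ppp1r1b* (DARPP-32), with a log2 fold change of 0.96 and an adjusted p of 0.0400. *Ppp1r1b* was also higher without dcKO_Nex-Cre replicate 2, by 0.70 on the log2 scale, and its call held in 9 of the 18 alternatives. The part of striatal RNA in the values of *Tac1*, *Penk* and *Pdyn* was not tested.

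**Figure D3:**
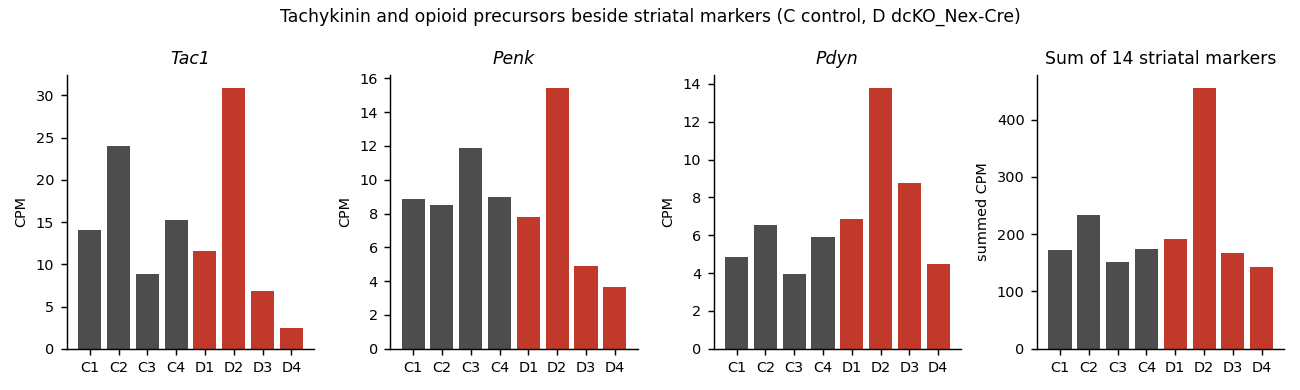
CPM of *Tac1*, *Penk* and *Pdyn*, and the summed CPM of 14 striatal markers, in each library (C1 to C4, control replicates, and D1 to D4, dcKO_Nex-Cre replicates). All 4 panels have their highest bar at D2, where the marker sum is 456 CPM against at most 234 CPM elsewhere.

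The markers of GABAergic interneurons, the cells that make *Sst*, *Npy* and *Vip*, had a median change close to 0. Of 20 such genes, 0 passed edgeR's threshold (0.884% of all genes did), 2 had an unadjusted p under 0.05 (13.6% of all genes), and DESeq2 and limma-voom called 0 (3.03% and 0.798% of all genes). Their median log2 fold change was -0.01, and their summed level was 1284 to 1666 CPM in the control and 1326 to 1592 CPM in the dcKO_Nex-Cre cortex. Among the other marker lists, edgeR called *Neurod6* lower (1 of 12 projection neuron markers, against 0.510% of all genes) and *Cplx3* higher (1 of 10 subplate and Cajal-Retzius markers, against 0.375%). *Neurod6* is the gene that carries Nex-Cre, which the controls lack, and the part of the Cre allele in its lower value was not tested. Of 6 thalamic, 5 hypothalamic, 6 choroid plexus, 12 glial and vascular, and 5 blood markers edgeR called 0, and DESeq2 and limma-voom called 0 of these as well. At an unadjusted p under 0.05 there were 5 of the 12 glial and vascular markers, all higher in the mutant (6.59% of all genes were), and 10 of the 12 had values above 0. The 2 hypothalamic markers at this level were both lower (7.05% of all genes were), and the thalamic, choroid plexus and blood lists had 0. Without dcKO_Nex-Cre replicate 4 edgeR called 3 glial markers higher, *C1qa*, *Gfap* and *Sox10*, named here after their values were seen. That fit called 1278 genes over all genes, against 144 in the main fit, so that the shares given above do not apply to it. The part of glial RNA in the precursors' values was not tested.

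To set the peptides against the interneurons of the same library, each precursor's count was divided by the summed counts of *Gad1*, *Gad2* and *Slc32a1*, which make and load GABA and are expressed by striatal neurons too. *Sst* stood at 48.9, 23.4, 42.8 and 52.9 counts per 100 of these counts in the control and at 34.6, 16.8, 29.0 and 22.4 in the dcKO_Nex-Cre cortex. The replicate 2 library of each group had the lowest ratio of its group. The log2 ratio of *Sst* was lower by a mean of 0.69 (a difference of -0.69), with p = 0.114 in the exact permutation test, two-sided, and 0.570 after adjustment over the 10 genes. *Pdyn* was at 2.26 ± 0.264 and 3.87 ± 1.38 counts per 100 (SD, n = 4) in control and mutant, with an exact permutation p of 0.114. None of the 10 precursors had ratios that separated the groups, as 3.05% of all genes had. With the summed *Dlx1*, *Dlx2*, *Dlx5*, *Dlx6* and *Lhx6* counts as the denominator, *Nts* was the 1 precursor that separated them, as 4.45% of all genes did, at 34.6 ± 4.43 and 25.7 ± 1.29 counts per 100 (SD, n = 4), with an exact permutation p of 0.0286 and an adjusted value of 0.286. The log2 ratio of *Sst* to this denominator differed by -0.87, with an exact permutation p of 0.0857 and an adjusted value of 0.428.

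**Figure D4:**
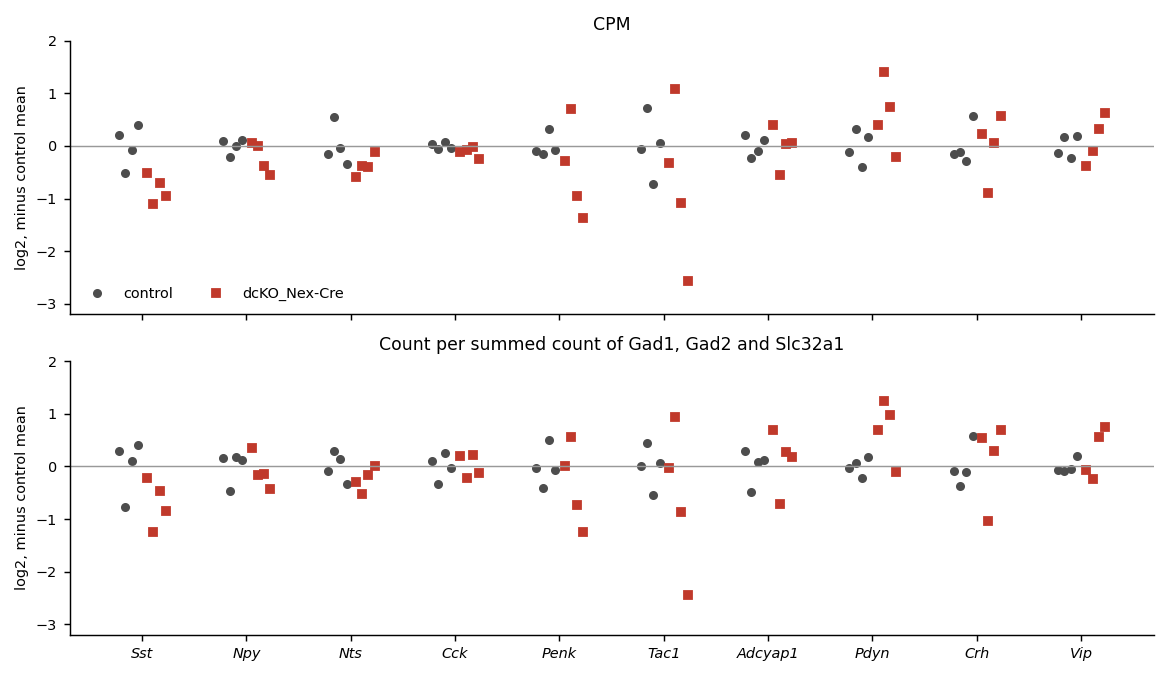
Each precursor's log2 CPM (top) and log2 ratio to the summed *Gad1*, *Gad2* and *Slc32a1* counts (bottom), minus the control mean. Grey circles are control and red squares dcKO_Nex-Cre libraries in replicate order; the groups overlap for all 10 genes in both panels, with a mean difference for *Sst* of -0.69 in the lower panel.

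Receptors and binding proteins of the 10 peptides were followed next. Of 26 listed genes 22 were tested, and edgeR called 3 of them, 1 higher and 2 lower, against 0.375% and 0.510% of all genes. *Npy1r*, the Y1 receptor for neuropeptide Y, was at 20.6, 22.6, 23.0 and 20.6 CPM in the control and at 43.0, 33.5, 34.9 and 37.6 CPM in the dcKO_Nex-Cre cortex. Every mutant library was above every control, and the mutant mean was 172% of the control mean. The fitted log2 fold change of *Npy1r* was 0.78 with a standard error of 0.10 and an adjusted p of 0.00516 in edgeR, within lane tag 2 it was 0.82 (adjusted p = 0.0163), and it passed the threshold in all 18 alternatives. *Npy1r* was thus upregulated, while *Npy* itself was not called. The *Npy* transcript was at 86.9% of the control mean (adjusted p = 0.522 in edgeR), with a log2 fold change of 0.02 within lane tag 2.

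Next, 2 genes of corticotropin-releasing hormone signalling were downregulated in the main fit. *Crhr1*, its main receptor in the cortex, was at 13.4, 12.9, 13.2 and 14.5 CPM in the control and at 9.65, 9.39, 9.53 and 8.76 CPM in the mutant. Its fitted log2 fold change was -0.53 with a standard error of 0.10 and an adjusted p of 0.0338 in edgeR. *Crhbp*, a secreted protein that binds the hormone and is known from somatostatin interneurons, was at 3.39, 2.901, 2.75 and 4.49 CPM in the control and at 1.25, 0.652, 1.53 and 1.68 CPM in the mutant. The mutant mean of *Crhbp* was 37.7% of the control mean, and the fit gave -1.42 on the log2 scale with a standard error of 0.28 and an adjusted p of 0.0439 in edgeR. Neither gene had overlapping groups, and within lane tag 2 the adjusted p was 0.0612 for *Crhr1* and 0.0343 for *Crhbp*. Leaving out any library other than dcKO_Nex-Cre replicate 4 put both above the threshold, with adjusted p values of up to 0.137 and 0.153 in edgeR. Their log2 fold changes stayed between -0.55 and -0.50 and between -1.56 and -1.20 when a library was left out. Both also missed the threshold with the lane term, with the replicate block and without both *Xist*-high libraries. Of the 18 alternatives, the call held in 7 for *Crhr1* and in 8 for *Crhbp*.

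The opioid receptors had values of either sign. *Oprk1*, the kappa receptor for dynorphins, was at 2.02, 1.42, 1.09 and 1.89 CPM in the control and at 0.638, 0.920, 0.578 and 0.281 CPM in the mutant (log2 fold change -1.36, adjusted p = 0.0875 in edgeR and 0.0131 in DESeq2, range over the alternatives 0.0131 to 0.297). *Oprd1*, the delta receptor, was at 0.753 ± 0.230 CPM in the control and 1.35 ± 0.360 CPM in the mutant (SD, n = 4), with an adjusted p of 0.223 in edgeR. With the 3 called genes these were the receptors whose groups did not overlap, 5 of 22 against 8% of all genes, and *Oprk1* and *Oprd1* were scarce in both groups. *Sstr3* (log2 fold change -0.69) and *Sstr4* (-0.70) among the somatostatin receptors, and *Cckbr* (-0.72) for cholecystokinin, did not pass, with adjusted p values of 0.227, 0.428 and 0.372 in edgeR. The receptors with the highest CPM were *Adcyap1r1*, the PACAP receptor (175 ± 15.5 and 195 ± 37.6 CPM, SD, n = 4), and *Sort1*, the sorting receptor sortilin that binds neurotensin (165 ± 9.59 and 181 ± 37.7 CPM). Neither passed, with adjusted p values of 0.610 and 0.680 in edgeR. *Adcyap1r1* lies 0.176 Mb from *Neurod6*.

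**Figure D5:**
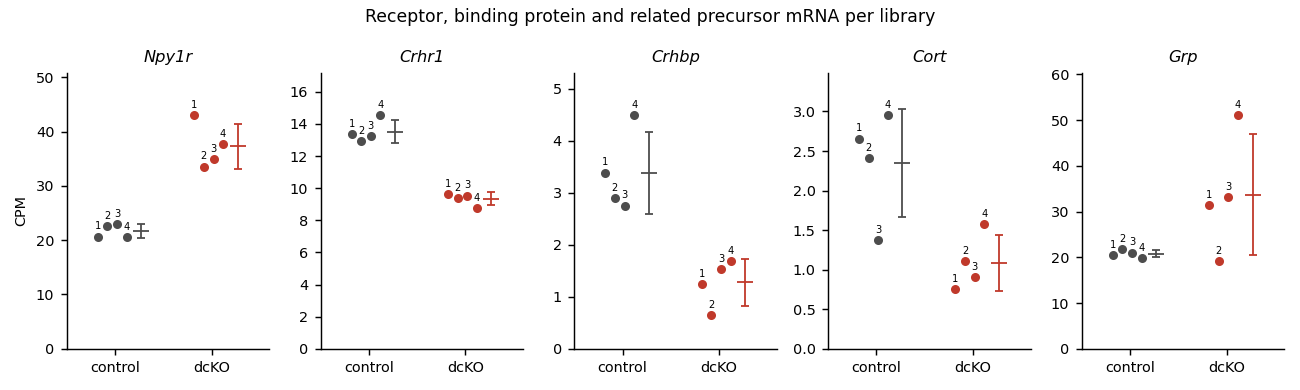
CPM of *Npy1r*, *Crhr1*, *Crhbp*, *Cort* and *Grp* in each library, on axes that start at 0. Numbered points are libraries by replicate number, and bars give the mean and SD of 4 libraries. The groups are apart for *Npy1r* (highest control 23.0, lowest dcKO 33.5 CPM), *Crhr1* and *Crhbp*, and they overlap for *Cort* and *Grp*.

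Of 35 genes listed as other neuropeptide precursors 14 were tested, and edgeR called 0, with 3 at an unadjusted p under 0.05, where 13.6% of all genes were. DESeq2 called 1 of them, *Cort*, against 3.03% of all genes, and limma-voom called 0. The list entry *Kiss1* was matched to another gene, *Golt1a*, which was not tested, so that *Kiss1* itself was not followed. *Cort* encodes cortistatin, a relative of somatostatin that shares its receptors, and it is named here after its values were seen. It was at 2.66, 2.41, 1.38 and 2.95 CPM in the control and at 0.754, 1.11, 0.908 and 1.57 CPM in the mutant, lower by the fit (-1.14 on the log2 scale, standard error 0.29) with an adjusted p of 0.120 in edgeR. *Grp*, the gastrin-releasing peptide precursor, was at 20.5, 21.7, 21.03 and 19.9 CPM in the control and at 31.5, 19.2, 33.2 and 51.1 CPM in the mutant. Its control libraries lay close together and 3 of the 4 mutant libraries lay above them, with a log2 fold change of 0.69 and an adjusted p of 0.210 in edgeR. *Pnoc*, the nociceptin precursor, was at 9.71 ± 1.54 and 9.35 ± 1.36 CPM (SD, n = 4).

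The machinery that cuts and stores the peptides was present throughout, with all 24 listed genes tested. Of these edgeR called 0, with 6 at an unadjusted p under 0.05 (13.6% of all genes were), DESeq2 called 1, *Pcsk1n* (3.03% of all genes), and limma-voom called 0. Their median log2 fold change was 0.03, and 3 of them had CPM ranges that were apart, against 8% of all genes. *Cpe*, the carboxypeptidase that trims cleaved peptides, was at 862 ± 116 CPM in the control and 1028 ± 163 CPM in the mutant (SD, n = 4). *Scg3*, a granin of dense-core vesicles, was at 189 ± 21.9 and 212 ± 34.6 CPM. Neither passed, with adjusted p values of 0.416 and 0.589 in edgeR. Named after their values were seen, the convertase gene *Pcsk1* and its inhibitor gene *Pcsk1n* were lower in all 4 mutant libraries than in any control, at 60.8% and 65.7% of the control mean, with adjusted p values of 0.157 and 0.110 in edgeR. Another convertase gene, *Pcsk2*, was at 126% of the control mean, with an adjusted p of 0.343 in edgeR, which called it higher within lane tag 2. *Pam*, which amidates peptides, was higher in all 4 at 114% of the control mean, with an adjusted p of 0.329.

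The genes whose levels followed each precursor most closely were sought among 10281 genes with a mean of at least 10 CPM, by Pearson's r of log2 CPM deviations from the group means over the 8 libraries. With this many genes and 8 libraries high values are common, and they are given as a description. Among the nearest genes were *Tuba4a* (r = 0.990) and *Napb* for *Sst*, *Pcsk2* and *Vldlr* (both 0.993) for *Npy*, *Fam162a* (0.979) for *Nts*, and *Marcks* and *Scaf11* (both 0.983) for *Cck*. *Penk* was followed by *Ccnd1* (0.980) and by the striatal marker *Adora2a* (0.965), *Pdyn* by *Pbx3* (0.984) and *Rgs2*, and *Tac1* by *Gpr153* (0.982) and *Ngef*. For *Vip* they included *Ranbp17* (0.984) and *Fbxl2*, for *Crh* *Cyp46a1* (0.983) and *St3gal4*, and for *Adcyap1* *Prelid3a* (0.980). All these values come from the same 8 libraries.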

How the data were processed

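P1 cortices (4 control, 4 dcKO_Nex-Cre) were used whole, with RNA isolated by Trizol and libraries made with an Illumina TruSeq v2 kit, which does not mark strand, so that reads of overlapping genes on opposite strands cannot be separated. Per the labels the reads belong to build mm10. What the authors deposited are raw read counts by Ensembl identifier, 1 file a library, not normalized. The aligner, counting program and annotation are not given in the sources used here. Each file lists 48709 genes, of which 48349 matched GENCODE M21 (GRCm38) for symbols, positions and exon lengths, and total counts ranged from 17958641 to 35191912. *Penk* overlaps *A830012C17Rik* on the other strand by 233 bases, where that gene had a mean of 2.12 counts.

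Counts were fitted in R 4.3.3 with edgeR 4.0.16 (filterByExpr, 16287 genes kept, TMM, robust dispersions, quasi-likelihood F test, two-sided, no covariates), and the Benjamini-Hochberg adjustment covered all 16287 genes (threshold 0.05). Standard errors were taken from the log2 fold change and its F value. CPM were computed on TMM-scaled library sizes. Single values were compared by an exact permutation test over 70 regroupings. Alternatives were DESeq2 1.42.0 (size factors and Wald test), limma-voom (limma 3.58.1), no filter, a minimum of 10 counts in each of the samples, a block for the replicate number, the lane tag as a term, lane tag 2 only, and each library left out. The 2 fits on *Xist*-high libraries were added after the data were seen. On simulated data for this comparison with 16101 genes, edgeR's test called 68 of 100 genes changed by 0.6 and 94 of 100 changed by 1 on the log2 scale, and 7 of 15901 unchanged genes. The changed genes were drawn only from genes with more counts than *Vip* and *Crh* had, and their spread followed the trended dispersion. These shares therefore do not give the power for *Vip* and *Crh*, or for genes that vary more than the trend. Within each group the libraries differed by more than counting noise.

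The 10 precursors and all lists were chosen with earlier results of these data known. Named besides them were the called genes of each list (at most 5), the 2 with the highest CPM of each list of pathway genes, the tested receptors, the 2 nearest genes of each precursor (some items are not reported here), and *Smarcc1* and *Smarcc2*. The 18 marker genes with the highest CPM of their lists had adjusted p values of 0.216 or more in edgeR and are mostly not named. Promoter windows were RefSeq's, for GRCm38.p6. Python 3.11.15, pandas 2.3.3, scipy 1.17.1 and matplotlib 3.10.9 were used for the rest.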

Additional observations from a re-analysis of the deposited data

Results flagged for a closer look

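In 82 groups of 4 libraries, taken from 41 genes named in the text, 5 held a library far from the other 3 by Dixon's criterion, where chance gives about 4.10. For *Penk*, control replicate 3 had 11.9 CPM, and the other controls had 8.48 to 8.99 CPM. For *Crh*, control replicate 4 had 1.06 CPM, and the others had 0.584 to 0.657 CPM, which are 24 counts against 12 to 14. *Sort1* and *Scg3* were lowest in control replicate 2, at 151 and 157 CPM, against 169 to 172 and 197 to 202 CPM in the other controls. For *Ppp1r1b*, dcKO_Nex-Cre replicate 2 had 88.3 CPM, and the other mutant libraries had 46.0 to 52.1 CPM, and that library was also the highest in 13 of 14 striatal markers.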

How the results depend on the processing

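Of 736 values for single genes (41 genes, up to 18 alternatives each), 638 kept their direction and side of the threshold. *Sst* was the precursor whose call changed. The count of precursors called, 0 in the main analysis, was 1 with DESeq2's Wald test, the replicate block, the *Xist* term and without control replicate 2 (range 0 to 1 when a library is left out). The count of pathway genes called, 3 of 60, was 6 with the Wald test and with no filter, 1 with the lane term and with both *Xist*-high libraries left out, and 1 to 6 when a library is left out. The count over all genes, 144, was 494 with the Wald test, 259 with no filter, 52 with the lane term, 248 within lane tag 2, 40 without both *Xist*-high libraries, and 18 to 1278 when a library is left out, the highest without dcKO_Nex-Cre replicate 4. The count of precursors separated from the controls relative to GABAergic markers was 0, where 3.05% of all genes were separated. With the *Dlx* and *Lhx6* denominator it was 1, against 4.45% of all genes. It was 1 within lane tag 2, and 0 to 1 when a library is left out. Groups separate more easily with fewer libraries, and the share of all genes was not computed for these smaller sets. The cause of these moves was not tested.

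The replicate number as a block gave 54 calls over all genes, 1 pathway gene (*Npy1r*) and 1 precursor (*Sst*, adjusted p = 0.0491 in edgeR). Same-numbered libraries correlated by 0.13, 0.02, 0.14 and -0.14 in their deviations from the group means, and the labels tie no number to a litter or day, so that the numbers were not taken as a pairing.

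Directions reversed in 40 of these values. With the lane term and within lane tag 2 the log2 fold changes were 0.020 and 0.022 for *Npy*, 0.45 and 0.45 for *Tac1*, 0.27 and 0.27 for *Penk*, -0.24 and -0.24 for *Vip*, -0.23 and -0.23 for *Crh*, -0.011 and -0.0072 for *Adcyap1*, 0.091 and 0.094 for *Pnoc*, and 0.026 and 0.028 for *Sstr2*. *Crh* was at -0.032 and *Adcyap1* at -0.0080 with limma-voom, and *Adcyap1* at -0.010 with the block and at -0.0042 with the *Xist* term. Without both *Xist*-high libraries *Pnoc* was at 0.036, *Oprm1* at -0.069 and *Crhr2* at 0.051. Over the 8 fits without 1 library, *Tac1* ranged from -1.10 to 0.095, *Vip* from -0.033 to 0.29, *Crh* from -0.15 to 0.26, *Adcyap1* from -0.14 to 0.17, *Pnoc* from -0.13 to 0.062, *Crhr2* from -0.19 to 0.011, *Tacr1* from -0.025 to 0.42 and *Oprm1* from -0.23 to 0.50. *Vip* and *Crh* rested on 26 to 40 and 10 to 29 counts per library.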

Other observations

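Added over the 10 precursors, the level was 408, 442, 389 and 407 CPM for the control libraries and 325, 342, 304 and 298 CPM for those of the mutant, a sum in which *Nts*, *Sst* and *Npy* weigh most. A different total is the sum of CPM per kb over the 10 genes. Of that total *Sst* made up 30.2% in control and 22.6% in mutant cortex, *Npy* 30.3% and 34.9%, and *Nts* 28.6% and 29.0%. These shares are descriptions of group means, without a test. The granin genes *Scg2* and *Vgf*, whose products are stored with the peptides, were at 62.3% and 63.2% of the control mean in the dcKO_Nex-Cre cortex, with adjusted p values of 0.398 and 0.249 in edgeR, and both were named after their values were seen. The granin genes *Chga* and *Chgb* were at 99.2% and 121% of the control mean. *Ptprn*, a membrane protein of dense-core vesicles, was at 77.2% of the control mean with an adjusted p of 0.208.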
